A study of Rattus norvegicus with 20 samples.

Results

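Collagens, laminins, integrins and a small set of other matrix genes were followed in primary rat alveolar epithelial cells that were stretched cyclically, with or without an inhibitor of the kinase PERK. Members were chosen by name from the 17337 gene symbols of the count table: collagen, laminin, integrin alpha and integrin beta symbols, plus Fn1, Sparc, Nid2, Tnc, Thbs1 and Lox. Nid1 and Hspg2, and chains such as Lama3 and Itgav, were not analysed here. The rule gave 61 genes. They were 10 fibrillar collagens, 17 other collagens, 9 laminin chains and nidogen, 8 integrin alpha subunits, 8 integrin beta subunits and 5 other secreted matrix proteins. The other 4 (Col4a3bp, Itgb1bp1, Itgb1bp2 and Itgb3bp) matched by their symbols but encode proteins that are neither matrix nor integrins. Of the 61 genes, 37 passed the filter on low counts and were tested.

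Type II cells from Sprague-Dawley rats were cultured for 4 days on flexible silastic membranes coated with fibronectin, where they take on features of type I cells. The 20 libraries came from 5 animals, each present once in each of 4 groups, and RNA of 4 technical replicate monolayers of an animal was pooled into 1 library. Stretched cells (S) were held in 0.01% DMSO for 18 h before 6 h of cyclic stretch, which was biaxial, ran at 15 cycles per min and enlarged the surface by 25%. Unstretched cells (NS) stayed in DMSO for 24 h. The inhibitor groups, stretched (S_PI) and unstretched (NS_PI), received 1 µM GSK2606414, which blocks PERK, for 18 h before the stretch or, in NS_PI, for 24 h in the treatment protocol and 18 h in the series text. The DMSO content of the inhibitor groups is not recorded, so inhibitor and vehicle cannot be told apart in comparisons of inhibitor with no inhibitor. No age of the animals is stated in these sources.

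Collagens are secreted as chains that assemble in threes. Fibrillar collagens form the fibres that bear load, and collagen IV and the laminins build the basement membrane under an epithelium, with nidogens as linkers. Integrins are pairs of an alpha and a beta subunit that bind these proteins from outside the cell and couple them to the actin cytoskeleton inside. In the alveolus the thin type I cell and the capillary share a basement membrane, and the surrounding matrix carries the stretch of each breath.

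Gene counts ran from 999209 to 3131541 per library, and members took 2.35 to 5.73% of them. Levels are given as CPM, counts scaled to a common library size; since a 3' end library gives about 1 fragment per transcript, they were not divided by length. The detection floor, taken as 3 counts, equalled 1.07 to 3.05 CPM. Of 15 type I cell markers, 11 were tested, led by Pdpn (1827 CPM). Their summed level ran from 1142 to 8047 CPM over the libraries. The summed type II list, with 10 genes tested, ran from 296.2 to 1239 CPM, led by Napsa (191.1 CPM). Markers of other cell types were also detected: the summed macrophage list ran from 1603 to 13980 CPM over the libraries, led by Lyz2 (4920 CPM), a lysozyme that type II cells also make. The fibroblast and smooth muscle list ran from 646.8 to 2699 CPM, led by Acta2 (1062 CPM), with Mfap4 and Rgs5 at 0 in every library. The endothelial list of 11 genes ran from 32.04 to 284.3 CPM, led by Esam (79.25 CPM). Cdh5 and Cldn5 were at 0 in every library, and the others averaged from 0.0773 (Emcn) to 7.88 CPM (Ramp2). The mesothelial list ran from 130.7 to 910.7 CPM, led by Msln (217.9 CPM). The airway and basal list ran from 211.4 to 3419 CPM, led by Scgb1a1 (1467 CPM). In bulk RNA, fewer cells of a type and less RNA per cell cannot be told apart.

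Fn1, Sparc and Col1a1 together held 83.9% of the 1598540 member counts. Fn1, fibronectin, the bridge between collagen and integrins and also the coating of the membranes, had 50.4% alone. Its level was 20846 ± 10534 CPM in NS (SD, n = 5), Sparc, a collagen-binding matricellular protein, stood at 8850 ± 2058 CPM and Col1a1, the alpha 1 chain of collagen I, at 3939 ± 1741 CPM. Col16a1, a fibril-associated collagen, and Itgb1, the shared partner of most matrix-binding alpha subunits, were next, at means of 1179 and 1177 CPM over the 20 libraries. Their libraries ran from 186.0 to 3356 CPM and from 749.4 to 1545 CPM, so their order was not settled. Col1a2, whose chain joins the Col1a1 chain in collagen I, had only 54 counts in all libraries against 184164 for Col1a1. Reads outside annotated genes, 16.2 to 24.5% of all records, are not part of any gene count.

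**Figure D1:**
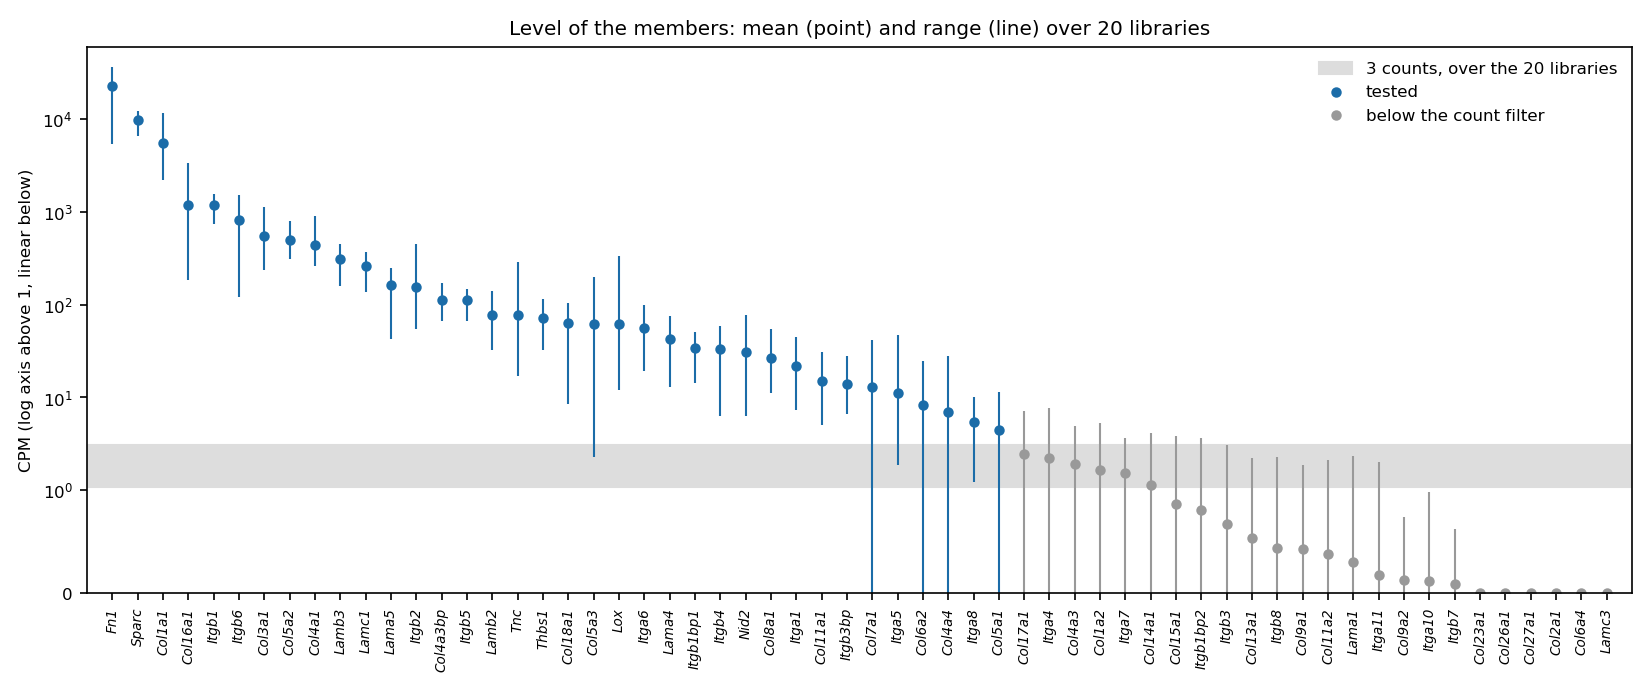
Mean level (point) and range over 20 libraries (line) of the members, in CPM on an axis that is logarithmic above 1 and linear below; grey marks members below the count filter and the band marks 3 counts. Fn1, Sparc and Col1a1 stand above the rest, and the grey members lie near or below the band.

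The 24 members below the filter included 18 with at least 1 count and 6 at 0 in all libraries (Col2a1, Col23a1, Col26a1, Col27a1, Col6a4 and Lamc3). The highest among the untested were Col17a1, a hemidesmosomal collagen, at a mean of 2.46 CPM, and Itga4, the leukocyte integrin subunit that also binds fibronectin, at 2.23 CPM. Col4a3, a chain of the alveolar and glomerular basement membrane, had 1.93 CPM. These levels lie at the floor, so no difference between groups was detectable for them at this depth.

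The first question was which matrix genes differ after 6 h of stretch. In S against NS, 8 of the 37 tested members passed an adjusted p of 0.05 (edgeR quasi-likelihood test, animal as a block, Benjamini-Hochberg over all 8320 genes tested): 7 rose and 1 fell. That is 21.6% of members, against 24.9% of all genes tested (12.5% higher and 12.4% lower). With the inhibitor, S_PI against NS_PI gave 12 of 37, of which 10 rose and 2 fell, or 32.4% against 30.5% of all genes (15.2% higher and 15.3% lower). Library-size scaling gave 4 higher and 2 lower members in S and 9 and 5 in S_PI, and upper-quartile scaling 5 and 2, and 9 and 4. The count in S fell to 5, 3 and 4 without animal 2, 4 and 5, respectively. The share called was thus near the background, while the called members were mostly higher and the median log2 change of all 37 was 0.222 and 0.246, against -0.0126 and -0.0195 over all genes. Col7a1, Tnc, Col5a3, Lama4 and Col1a1 rose in both comparisons, which is 62.5% of the S calls and 41.7% of the S_PI calls. No member's groups separated completely (0 of 37 in either comparison), whereas 7.34% and 13.8% of all genes did.

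**Figure D2:**
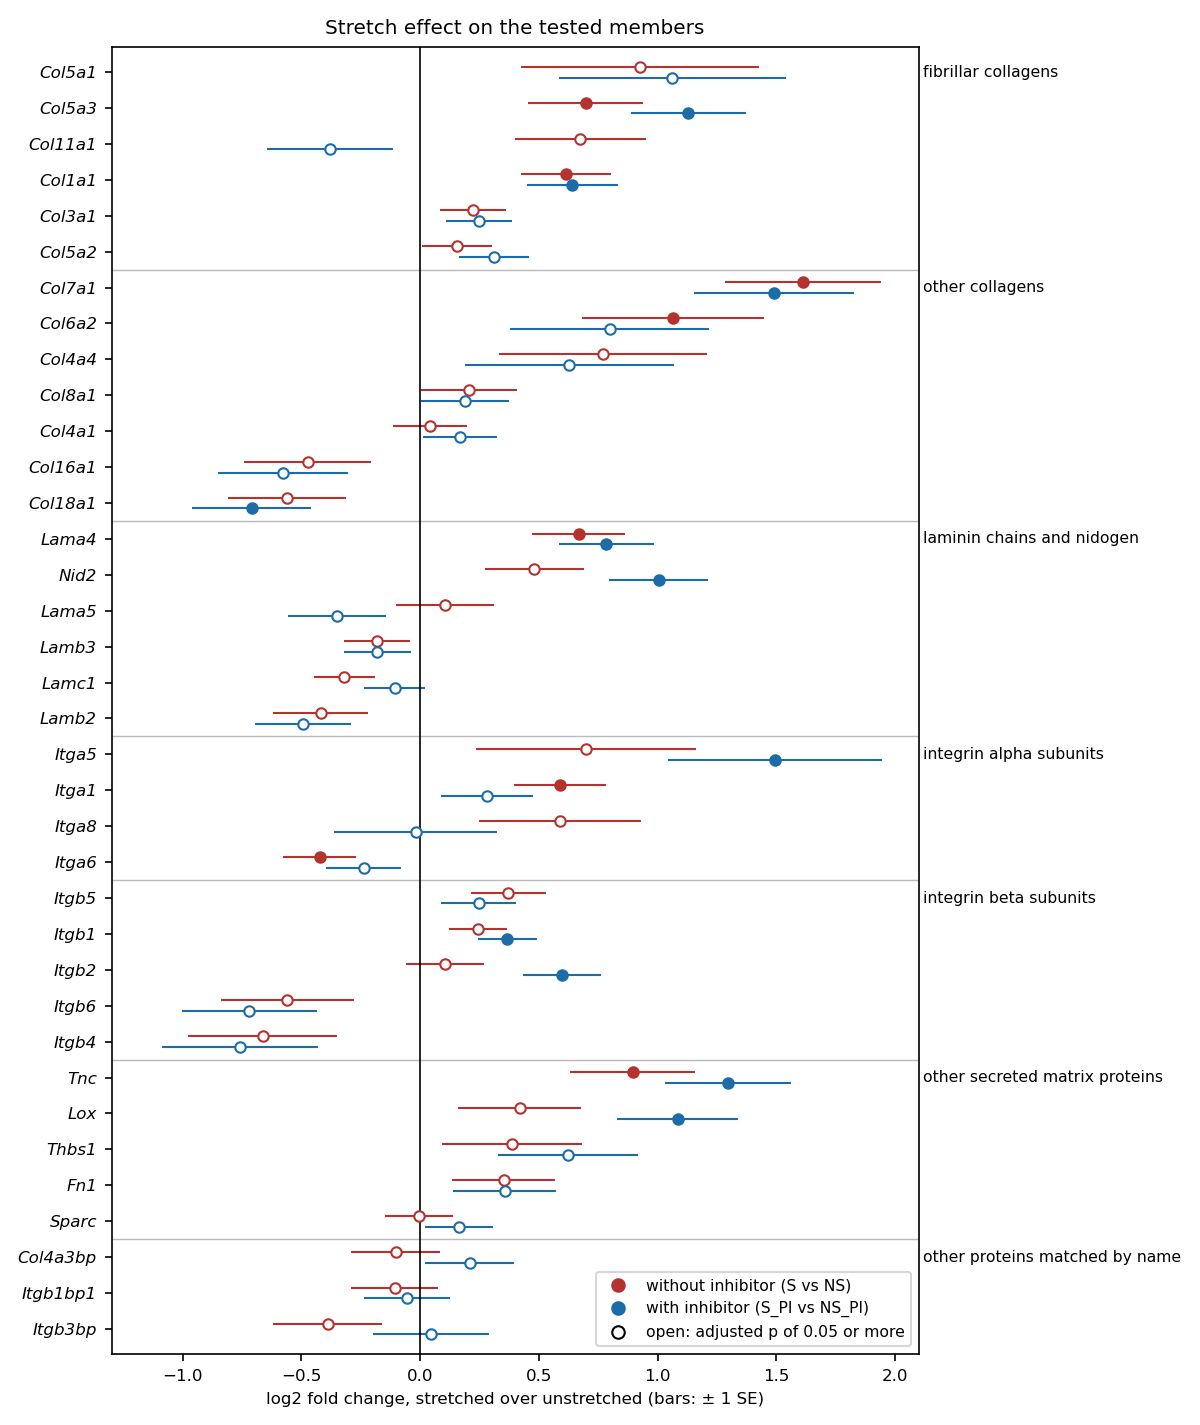
Log2 fold change of stretched over unstretched cells for the tested members, ordered by role, without (red) and with (blue) the inhibitor; bars are 1 SE and filled points passed an adjusted p of 0.05. Col7a1 lies farthest to the right without inhibitor at 1.61, and Itgb4 farthest to the left at -0.66 with an open point.

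Among the fibrillar collagens, Col1a1 and Col5a3 rose in both comparisons and the other 4 tested chains passed in neither. Col1a1 in NS read 2201, 2499, 3437, 5732 and 5827 CPM in animals 1 to 5, and in S 5670.5, 3142, 3518, 8685 and 10465 CPM. In NS_PI it read 2488, 2408, 2604, 8566 and 7671 CPM, and in S_PI 7123, 3030, 4155, 11628 and 8954 CPM. Every animal was higher with stretch, although animals 2 and 3 stretched stood below animals 4 and 5 unstretched, so the groups overlap. The log2 change was 0.61 ± 0.191 (SE; edgeR adjusted p = 0.023, n = 5 animals) without the inhibitor and 0.64 ± 0.191 (adjusted p = 0.0146) with it. Without animal 4 or animal 5 the first call was lost (adjusted p = 0.0584 and 0.0865).

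Col5a3 encodes a minor collagen V chain. Its NS values were 2.31, 17.8, 29.8, 124.3 and 72.7 CPM in animals 1 to 5, and its S values 18.6, 23.6, 50.1, 116.9 and 127.5 CPM. The NS_PI values were 4.19, 16.3, 21.6, 100.3 and 81.7 CPM, and the S_PI values 24.1, 31.7, 50.2, 201.3 and 131.6 CPM. Stretch raised it in 4 of 5 animals without and 5 of 5 with the inhibitor, with log2 changes of 0.70 ± 0.241 (adjusted p = 0.0389) and 1.13 ± 0.241 (adjusted p = 0.00146). The first call failed under library-size scaling (adjusted p = 0.0595), under upper-quartile scaling (adjusted p = 0.0524), and without animal 2, 3 or 5. Col5a1, the main collagen V chain, differed by 0.92 ± 0.501 and 1.06 ± 0.479 without passing (adjusted p = 0.183 and 0.0961), at a mean of 4.43 CPM. In S_PI it passed without animal 2 (1.18, adjusted p = 0.0456). Col3a1 and Col5a2, partners of collagen I in tissue fibres, differed by 0.22 and 0.16 in S and by 0.25 and 0.31 in S_PI, none called. Col11a1, a minor fibrillar chain, read 0.67 ± 0.276 in S (adjusted p = 0.0785), 0.92 without animal 1 (adjusted p = 0.0197), and -0.38 ± 0.266 in S_PI (adjusted p = 0.295).

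Of the 7 other collagens tested, Col7a1 rose in both comparisons, Col6a2 in S and Col18a1 fell in S_PI. Collagen VII forms the anchoring fibrils that tie a basement membrane to the stroma. Col7a1 in NS read 0, 0.987, 2.48, 20.0 and 11.9 CPM in animals 1 to 5, and in S 4.53, 3.93, 11.1, 41.7 and 39.9 CPM. In NS_PI it read 0.931, 2.08, 3.16, 10.2 and 18.6 CPM, and in S_PI 4.01, 9.15, 8.75, 32.8 and 33.4 CPM. It was higher in every animal with stretch in both settings, and animals 4 and 5 were above the others in all 4 groups. The log2 change was 1.61 ± 0.33 (adjusted p = 0.00156) and 1.49 ± 0.336 (adjusted p = 0.00233), and without the animal block neither was called. The values of animals 1 to 3 rest on few reads: 0, 2 and 4 counts in NS. Col6a2, a chain of the microfibrillar collagen VI, changed by 1.07 ± 0.383 in S (adjusted p = 0.046, higher in 5 of 5 animals), at a mean of 8.26 CPM, and this call was lost in 8 of 11 alternative settings. In S_PI it read 0.80 ± 0.419 (adjusted p = 0.152), or 1.55 without animal 5 (adjusted p = 0.0243).

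Col18a1, a basement membrane collagen whose cleaved end is endostatin, fell in S_PI by 0.71 ± 0.251 on the log2 scale (adjusted p = 0.0364), lower in 5 of 5 animals. In S it read -0.56 ± 0.248 (adjusted p = 0.102), also lower in 5 of 5 animals. Animal 1 stood at 8.595 CPM in S_PI against 51.08 to 66.8 CPM in the others, and without it the difference was -0.36 (adjusted p = 0.0994). The collagen IV genes Col4a1 (445.2 CPM on average) and Col4a4 were not called, with changes of 0.04 ± 0.155 (-0.065 under library-size scaling) and 0.77 ± 0.44 in S and 0.17 ± 0.155 and 0.63 ± 0.441 in S_PI. Without animal 2 the change of Col4a4 in S was 1.53 (adjusted p = 0.031), and without animal 1 it was -0.23. Col16a1 was lower without passing, at -0.47 ± 0.268 in S and -0.58 ± 0.273 in S_PI (adjusted p = 0.204 and 0.113); without the low-count filter the latter passed (-0.59, adjusted p = 0.0395).

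Among the laminin chains and nidogen, Lama4 rose in both comparisons and Nid2 in S_PI. Lama4, the alpha chain of laminins of vessels and mesenchyme, read 25.8, 12.8, 34.1, 39.5 and 61.3 CPM in NS and 75.9, 23.6, 38.9, 74.2 and 61.8 CPM in S in animals 1 to 5. With the inhibitor the values were 41.9, 12.9, 18.5, 30.7 and 43.1 CPM unstretched and 68.2, 22.0, 37.3, 67.1 and 55.2 CPM stretched. All 5 animals were higher stretched in both comparisons, with the 2 values of animal 5 in S and NS nearly equal. The log2 changes were 0.67 ± 0.197 (adjusted p = 0.0173) and 0.78 ± 0.2 (adjusted p = 0.00558). The first was lost without animal 1, 2 or 4 (adjusted p = 0.0705, 0.0568 and 0.0749).

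Lamb3, a beta chain of the epithelial laminin that hemidesmosomes attach to, stood at -0.18 in both comparisons, uncalled. Lamc1, the gamma chain of most laminins, was lower in all 5 animals in S at -0.32 ± 0.128 without passing (adjusted p = 0.0733), and passed under library-size scaling (adjusted p = 0.0173) and upper-quartile scaling (adjusted p = 0.0316). Lama5, the main alpha chain of the alveolar basement membrane, read 0.10 ± 0.205 in S (-0.0083 under library-size scaling) and -0.35 ± 0.207 in S_PI, uncalled. Lamb2, a beta chain of mature basement membranes, read -0.42 ± 0.201 and -0.49 ± 0.203 (adjusted p = 0.132 and 0.0687), the latter past the threshold under both other scalings (adjusted p = 0.0325 and 0.0345), without the filter and without animal 3. Nid2, a nidogen that links laminin to collagen IV, rose in S_PI by 1.00 ± 0.207 (adjusted p = 0.00112, 5 of 5 animals), from 21.9 ± 16.2 to 43.7 ± 29.7 CPM (SD, n = 5). In S its change was 0.48 ± 0.209 (adjusted p = 0.0963), or 0.63 without animal 3 (adjusted p = 0.0479).

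Tnc, tenascin-C, a matricellular protein of remodelling tissue, rose in both comparisons. Its NS values were 72.0, 26.1, 31.0, 57.1 and 49.9 CPM in animals 1 to 5, and its S values 180.03, 22.1, 47.6, 94.6 and 164.8 CPM. The NS_PI values were 55.8, 17.9, 16.9, 48.3 and 69.8 CPM, and the S_PI values 287.6, 22.6, 50.2, 134.2 and 85.2 CPM. Animal 1 had the highest stretched values, and animal 2 was the 1 animal not higher in S. The log2 changes were 0.90 ± 0.263 (adjusted p = 0.017) and 1.30 ± 0.266 (adjusted p = 0.00106), the first lost without animal 4 (adjusted p = 0.0519) or 5 (adjusted p = 0.0891).

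Lox, the enzyme that crosslinks collagen and elastin, rose with stretch in the presence of the inhibitor. Its NS_PI values were 120.5, 22.5, 12.1, 26.9 and 17.1 CPM, and its S_PI values 335.2, 28.1, 26.8, 53.4 and 47.04 CPM. In NS it read 144.4, 32.1, 16.7, 20.03 and 18.4 CPM, and in S 208.2, 20.0, 27.8, 15.3 and 51.5 CPM. Animal 1 was several times above the others in every group. The log2 change was 1.08 ± 0.256 in S_PI (adjusted p = 0.00336, 5 of 5 animals) and 0.42 ± 0.261 in S (adjusted p = 0.25, 3 of 5). Fn1 did not pass in either comparison (0.35 ± 0.218 and 0.36 ± 0.217; adjusted p = 0.248 and 0.222). Sparc differed by -0.0040 ± 0.143 and 0.17 ± 0.143, and Thbs1, thrombospondin-1, by 0.39 ± 0.295 and 0.62 ± 0.294, uncalled. Leaving out animal 1 brought Thbs1 to 0.79 (adjusted p = 0.00983) in S and 0.86 (adjusted p = 0.0039) in S_PI.

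Of the receptors, Itga5, which pairs with Itgb1 as the classical fibronectin receptor, rose in S_PI. It read 3.26, 3.33, 2.64, 9.75 and 13.4 CPM in NS_PI and 47.0, 6.71, 9.33, 15.2 and 15.0 CPM in S_PI. In NS it read 4.15, 4.44, 3.72, 8.84 and 14.1 CPM, and in S 31.7, 3.21, 1.85, 13.2 and 14.2 CPM. The increase was shared by 5 of 5 animals with the inhibitor but was by far the widest in animal 1. The log2 changes were 1.49 ± 0.452 (adjusted p = 0.016) and 0.70 ± 0.463 (adjusted p = 0.281), and without animal 1 they were 0.77 (adjusted p = 0.0644) and -0.03.

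Itga1, a collagen-binding alpha subunit, rose in S by 0.59 ± 0.192 (adjusted p = 0.0289, 4 of 5 animals). This call was lost in 6 of 11 alternative settings, among them library-size scaling (adjusted p = 0.0624) and leaving out animal 1, 2 or 5. In S_PI it read 0.28 ± 0.192 (adjusted p = 0.277), higher in 5 of 5 animals. Itga6, the laminin-binding subunit of hemidesmosomes, fell in S. Its NS values were 35.1, 48.8, 78.8, 76.6 and 99.3 CPM in animals 1 to 5, and its S values 19.1, 43.2, 53.2, 55.9 and 88.9 CPM. All 5 animals were lower, by 0.42 ± 0.154 on the log2 scale (adjusted p = 0.0489), a value just inside the threshold that was lost when any 1 animal was left out. In S_PI its change was -0.24 ± 0.157 (adjusted p = 0.262). Its partner Itgb4 differed by -0.66 ± 0.313 and -0.76 ± 0.33 (adjusted p = 0.125 and 0.0847), and by -1.02 and -1.07 without animal 2 (adjusted p = 0.0295 and 0.0209). In S_PI it also passed under library-size scaling (-0.85, adjusted p = 0.0476) and without the filter (-0.78, adjusted p = 0.0307).

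**Figure D3:**
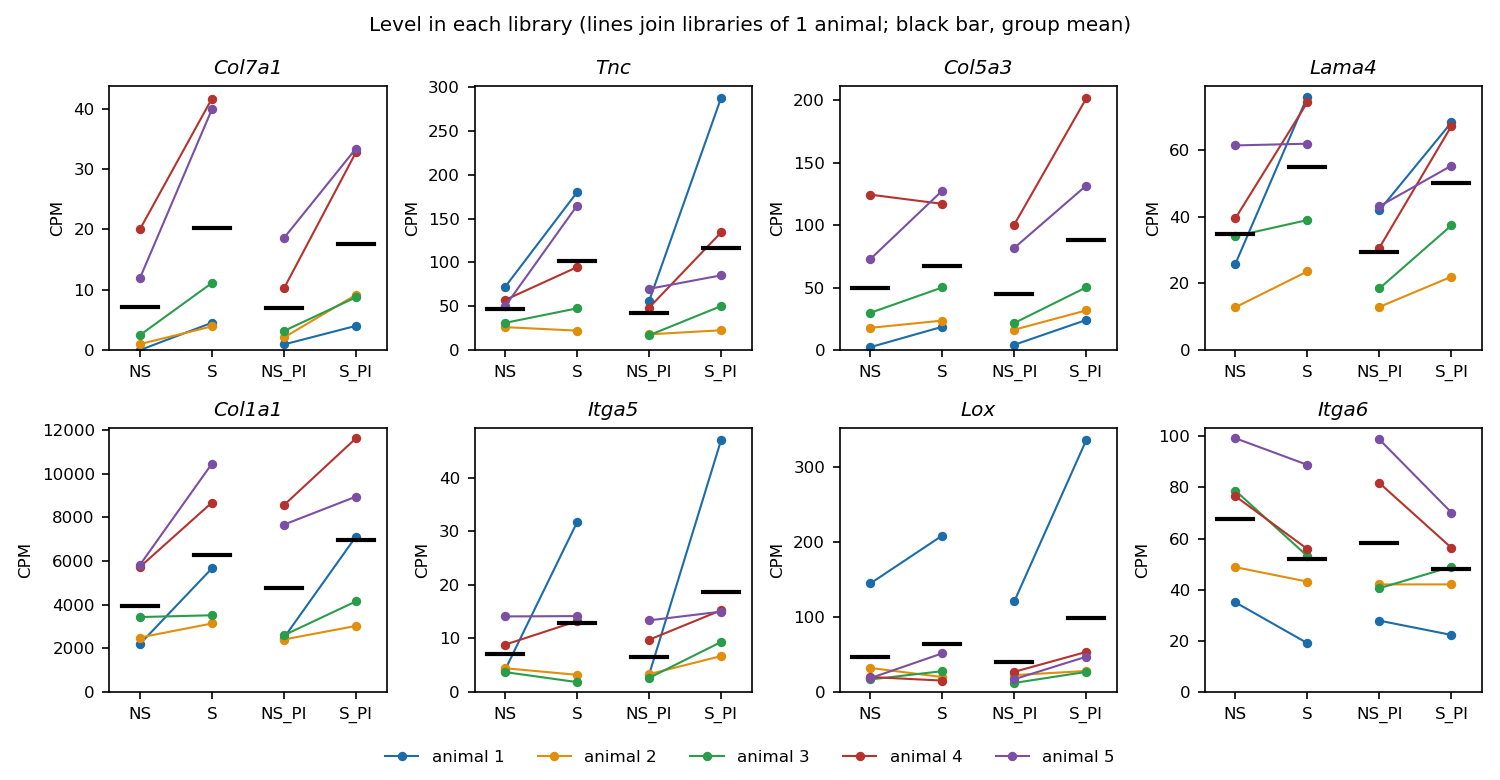
Level in CPM of 8 members in each library by group, with lines joining the 2 libraries of an animal without (NS, S) and with (NS_PI, S_PI) inhibitor and black bars for group means. Lines rise in most animals for Col7a1, Tnc, Col5a3, Lama4 and Col1a1, while the animals' own levels keep the groups overlapping; Lox and Itga5 stand highest in animal 1 with stretch.

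Among beta subunits, Itgb1 rose in S_PI by 0.37 ± 0.123 (adjusted p = 0.0277, 5 of 5 animals), from 1040.4 ± 215 to 1323 ± 151 CPM (SD, n = 5), and read 0.24 ± 0.123 in S (adjusted p = 0.154). Its S_PI call was lost under library-size and upper-quartile scaling and without animal 2, 3 or 4. Itgb2, the beta subunit of leukocyte integrins, rose in S_PI by 0.60 ± 0.164 (adjusted p = 0.00875, 5 of 5 animals) and read 0.10 ± 0.164 in S. In the same comparison 8 of 14 tested macrophage and leukocyte markers rose and none fell, against 6 and none in S. That is 57.1% and 42.9% called, against 30.5% and 24.9% of all genes tested. The markers' summed level was 1608 to 9956 CPM in NS_PI (median 7557) and 2664 to 13110 CPM in S_PI (median 6931), higher in 4 of 5 animals. Their part in the change of Itgb2 was not tested. Itgb6, the epithelial partner of the alpha v subunit that activates latent TGF-beta, was lower without passing: -0.56 ± 0.28 in S and -0.72 ± 0.284 in S_PI (adjusted p = 0.15 and 0.0588). In S_PI it passed by DESeq2 (adjusted p = 0.0474), under both other scalings (adjusted p = 0.0333 and 0.0349), without the filter, and without animal 2 or 3. Itgb5 differed by 0.37 and 0.25, uncalled, or by 0.58 in S without animal 5 (adjusted p = 0.0161). Itga8, another partner of Itgb1, read 0.59 ± 0.342 and -0.02 ± 0.342, uncalled. Col4a3bp, a ceramide transfer protein, read -0.10 and 0.21 (0.42 without animal 1, adjusted p = 0.0184). None of the 3 tested genes that matched by symbol but are neither matrix nor integrins was called.

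The fibroblast and smooth muscle markers, whose cell types make much of the fibrillar collagen of a lung, are given beside the collagen results. Their summed level was 646.8 to 1238 CPM in NS, 677 to 2699 CPM in S, 699.8 to 1733 CPM in NS_PI and 780.9 to 1782 CPM in S_PI, higher with stretch in 4 of 5 and 3 of 5 animals. Most of this sum was Acta2 (mean 1062 CPM), which was called in neither comparison (log2 0.51 and 0.098). Of the 9 tested, 1 rose (Mfap5) and 1 fell (Cnn1, log2 -1.08) in S. In S_PI 2 rose (Dcn and Des) and 2 fell (Cnn1, log2 -0.91, and Pdgfrb, log2 -1.13). That is 22.2% and 44.4% called, against 24.9% and 30.5% of all genes tested. The type I list held 4 falls and no rise among 11 in S and 7 falls and 1 rise in S_PI (36.4% and 72.7% called). The part of either in the members' changes was not tested.

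Whether PERK inhibition altered these genes was asked in both states and by the interaction of stretch and inhibitor. No member passed in NS_PI against NS, S_PI against S or the interaction (0% of all genes tested in each, edgeR). At an unadjusted p under 0.05 there were 3, 3 and 2 members (455, 340 and 345 genes), and DESeq2 called 7, 10 and 3 genes, none of them members. The lowest adjusted p of a member was 0.64, 0.999 and 0.984. The median half-width of the members' 95% intervals was 0.423, 0.426 and 0.606 on the log2 scale, so small differences were not detectable. For 9, 8 and 15 of the 37 members the interval reached a 2-fold change, so for these larger differences were not excluded either.

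Col8a1, a short-chain collagen of vessel walls, was higher with the inhibitor in 5 of 5 animals in both states, by 0.66 (95% interval 0.254 to 1.06, adjusted p = 0.64) in unstretched cells and by 0.64 (0.237 to 1.04) in stretched ones. Col11a1 differed by 0.82 (0.256 to 1.38, adjusted p = 0.764) in unstretched cells, and its interaction was -1.05 (-1.85 to -0.256). For Itgb2 the interaction was 0.50 (0.0139 to 0.978, adjusted p = 0.984). The other members at an unadjusted p under 0.05 were Itgb3bp, at -0.62 in unstretched cells, and Sparc and Col3a1, at 0.38 and 0.31 in stretched ones. Itga5, Lox and Nid2, which passed in S_PI but not in S, had no interaction call, so a difference of their stretch effects between the inhibitor settings was not shown.

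Animals differed from each other in most members, beyond the spread between the libraries of an animal. The animal term passed for 33 of 37 members (89.2%, edgeR), against 47.4% of all genes tested. Among genes of at least 10 CPM the shares were 87.9% (29 of 33) and 49.6%. Without animal 1 it was 24 of 35 members against 26.9% of all genes. The median ratio of the highest to the lowest animal was 2.95 for members and 1.66 for all genes, and the animal accounted for a median of 65.5% of a member's variance on the log scale, against 37.5% over all genes, with 9.29% and 13.1% for stretch. Each animal is 1 cell preparation, so animal and preparation cannot be told apart. Marker lists varied between animals as well: the animal term passed for 14 of 14 tested macrophage, 11 of 11 type I and 9 of 9 fibroblast and smooth muscle markers.

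The patterns differed from gene to gene. Lox averaged 202.1 CPM in animal 1 and 20.9 to 33.5 CPM in the others (adjusted p = 3.85e-09), and without animal 1 its animal term did not pass (adjusted p = 0.345). The summed mesothelial list was also highest in animal 1, at 509 CPM against 142.4 to 262.1 CPM. So were the endothelial list (163.6 against 55.82 to 88.05 CPM) and the fibroblast and smooth muscle list (1697 against 701.1 to 1545 CPM). In animal 1 these sums were mostly Esam (152.3 CPM) and Acta2 (1445 CPM). Ramp2, the other tested endothelial marker, was highest in animal 4. Of the tested fibroblast and smooth muscle markers, Acta2 and Des were highest in animal 1. Pdgfra, Pdgfrb, Postn, Cnn1 and Fbln1 were lowest there, with Dcn and Mfap5 between. The part of any of these cell types in the Lox level was not tested. Itgb2 averaged 385.07 CPM in animal 4 and 68.4 to 138.0 CPM in the others (adjusted p = 1.73e-09). The summed macrophage list was also highest in animal 4, at 11890 CPM against 2013 to 8536 CPM, with Lyz2 alone at 9313 CPM. Of the tested markers, Ptprc, Fcer1g, Mrc1, C1qc, Spi1, Aif1, Lyz2 and Itgal were highest in animal 4. Tyrobp, Laptm5, Csf1r and C1qa were highest in animal 3, and Cd68 and Cd14 in animal 5. Animal 1 had the lowest list sum, 2013 CPM, and the highest Itgb2 after animal 4, 138.0 CPM. The part of these cells in the Itgb2 levels was not tested. Fn1 was lowest in animal 1, at 8811.5 CPM against 23282 to 28961 CPM, and lost its animal call without it (adjusted p = 0.47).

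Col7a1 and Col5a3 were higher in animals 4 and 5 (26.2 and 26.0 CPM, and 135.7 and 103.3 CPM) than in animals 1 to 3 (2.37 to 6.38 CPM, and 12.3 to 37.9 CPM). Col16a1 ran the other way for animals 2 and 3, at 3052 and 1719 CPM against 245.9 to 578.4 CPM in animals 1, 4 and 5. Col4a4, a chain of the mature alveolar basement membrane, averaged 13.6, 11.5 and 9.49 CPM in animals 1 to 3 and 0.116 and 0.467 CPM in animals 4 and 5. The summed type I markers were also lower in animals 4 and 5, at 1622 and 1923 CPM, than in animals 1 to 3, at 5357 to 7018 CPM, and their part in these levels was not tested. Sparc, Itgb5, Thbs1 and Itgb4 were the members with no animal call.

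**Figure D4:**
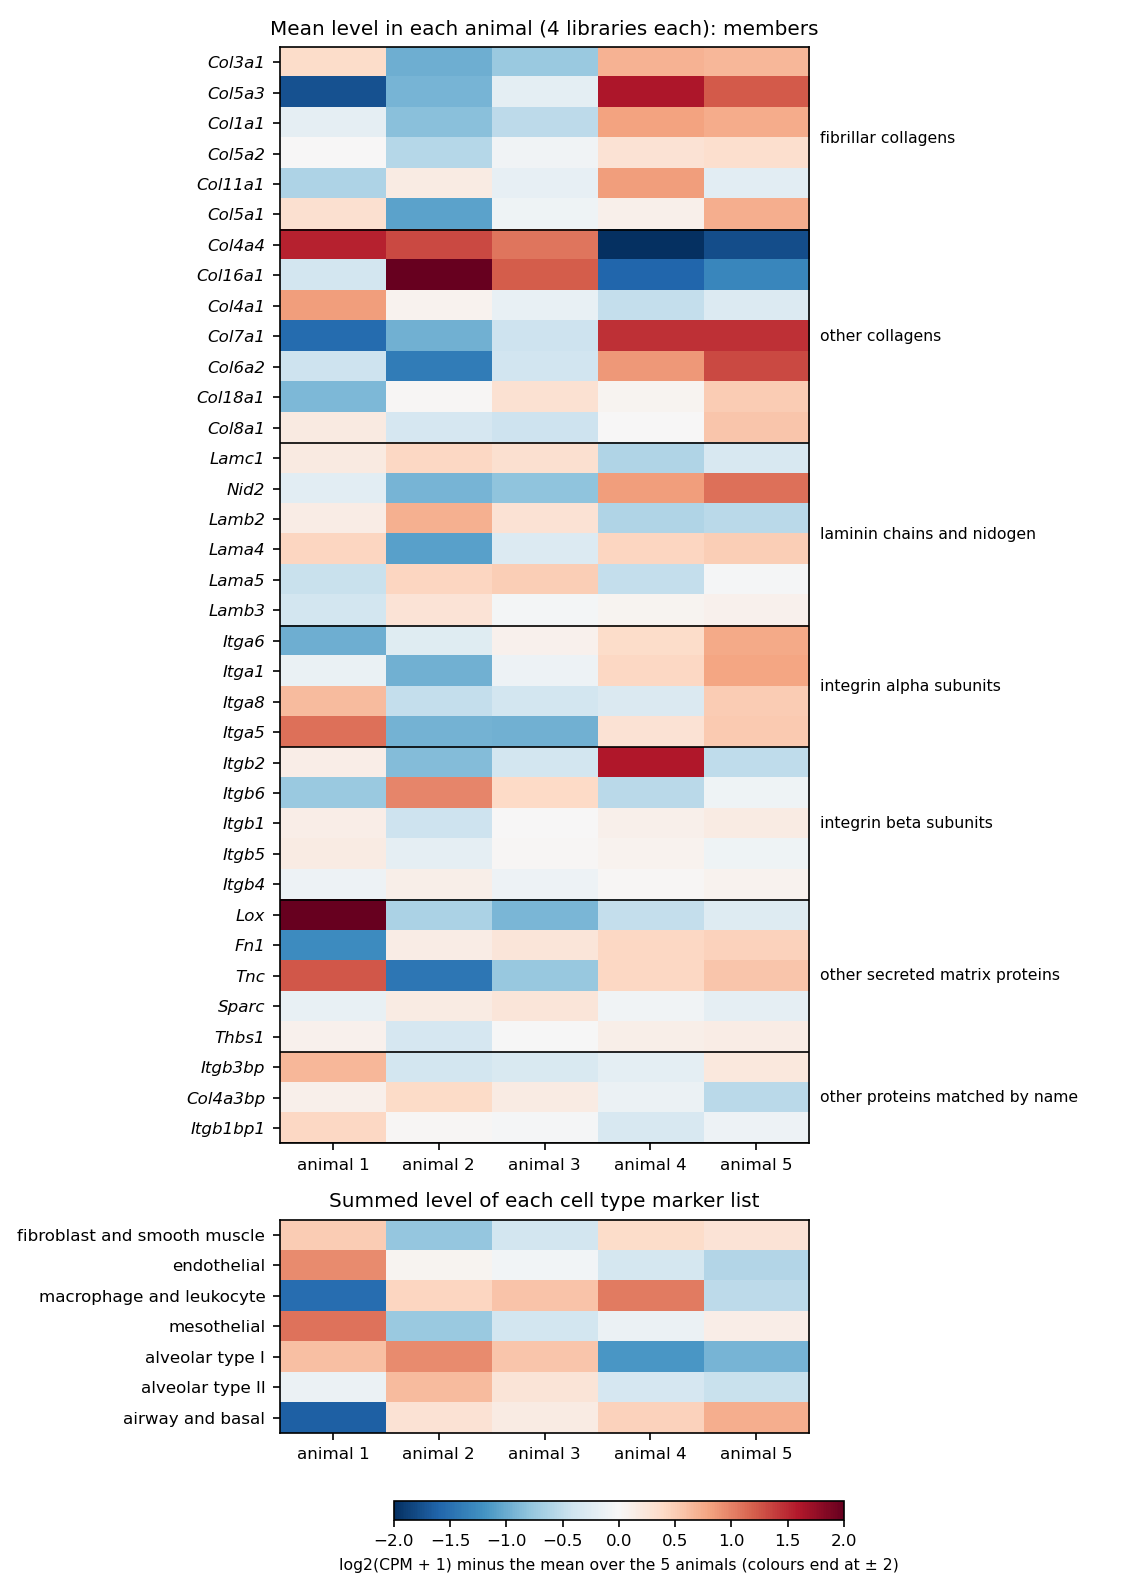
Mean level of the tested members (upper panel) and summed marker lists (lower panel) in each animal over its 4 libraries, as log2(CPM + 1) minus the mean of the 5 animals, red above and blue below, with colours ending at 2 either way. Lox is deep red in animal 1 alone and Itgb2 in animal 4 alone, while Col7a1 and Col5a3 are red in animals 4 and 5.

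The genes that process and anchor this matrix were read from 4 further lists. Of 20 tested genes that make and crosslink collagen, 7 rose and none fell in S and 4 rose and none fell in S_PI, with medians of 0.345 and 0.233. That is 35% and 20% called, against 24.9% and 30.5% of all genes tested. They included P4ha1, a prolyl hydroxylase subunit, at 0.64 and 0.52, and Plod2, a lysyl hydroxylase, at 0.60 and 1.13. Of 24 other matrix and matricellular genes, 4 rose and 1 fell in S, 5 rose and 4 fell in S_PI (20.8% and 37.5% called). The medians were 0.0584 and -0.0419. Cyr61, a matricellular ligand of integrins, fell by 1.47 and by 1.62. Smoc2, a secreted relative of Sparc, rose by 1.08 in S and by 0.79 in S_PI. Vcan, the proteoglycan versican, rose by 0.70 in S and by 1.10 in S_PI.

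Of 23 integrin adhesion complex genes, 2 rose and 4 fell in S and 1 rose and 5 fell in S_PI (26.1% called in both), with medians of 0.0286 and 0.0221. Kank2, a talin-binding protein, fell by 0.92 and by 0.89, while Vasp, an actin regulator, rose by 0.68 in S and Zyx, zyxin, by 0.65 in S_PI. Of 14 other matrix receptors and hemidesmosome genes, 3 rose and 3 fell in S and 4 rose and 2 fell in S_PI (42.9% called in both), with medians of 0.184 and 0.0451. Dag1, dystroglycan, a laminin receptor, fell by 1.17 and by 1.22, and Plaur, the urokinase receptor, rose by 1.12 and 1.54.

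The promoters of the genes that rose in both comparisons are shown because each of these members was called higher in both, though their levels differed in pattern between animals. RefSeq promoter windows on GRCr8, from 250 bases before to 50 after the gene start, were held for 4 of the 5: Col7a1 (chr8:118483114-118483413, plus strand), Tnc (chr5:82476082-82476381, minus strand), Col5a3 (chr8:27625899-27626198, minus strand) and Lama4 (chr20:43946648-43946947, plus strand). Capitals mark the letters TATAAA, at -208 in Tnc and -205 in Lama4, or CCAAT, at -182 in Col5a3, each counted from the start. Other spellings of a TATA box, such as ctatataag in the Tnc window, were not searched and stay in lower case. The marked letters are thus not shown to be working boxes.
Col7a1: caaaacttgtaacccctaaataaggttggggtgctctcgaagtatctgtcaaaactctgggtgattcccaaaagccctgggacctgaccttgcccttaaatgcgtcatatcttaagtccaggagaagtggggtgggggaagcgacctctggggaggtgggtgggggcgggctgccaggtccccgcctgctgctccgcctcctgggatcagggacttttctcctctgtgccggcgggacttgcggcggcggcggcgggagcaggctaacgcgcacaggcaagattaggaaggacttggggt
Tnc: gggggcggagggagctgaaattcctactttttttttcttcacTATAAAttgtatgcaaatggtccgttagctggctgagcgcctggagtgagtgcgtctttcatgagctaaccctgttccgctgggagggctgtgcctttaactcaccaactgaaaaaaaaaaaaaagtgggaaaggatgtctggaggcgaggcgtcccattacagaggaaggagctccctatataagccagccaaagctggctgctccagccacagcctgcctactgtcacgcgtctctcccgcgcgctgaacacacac
Col5a3: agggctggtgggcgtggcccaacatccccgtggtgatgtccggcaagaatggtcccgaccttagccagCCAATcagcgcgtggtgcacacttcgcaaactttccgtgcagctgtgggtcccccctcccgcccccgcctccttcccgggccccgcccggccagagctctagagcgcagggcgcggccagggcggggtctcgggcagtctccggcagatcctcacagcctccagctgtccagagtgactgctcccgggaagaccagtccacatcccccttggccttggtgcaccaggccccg
Lama4: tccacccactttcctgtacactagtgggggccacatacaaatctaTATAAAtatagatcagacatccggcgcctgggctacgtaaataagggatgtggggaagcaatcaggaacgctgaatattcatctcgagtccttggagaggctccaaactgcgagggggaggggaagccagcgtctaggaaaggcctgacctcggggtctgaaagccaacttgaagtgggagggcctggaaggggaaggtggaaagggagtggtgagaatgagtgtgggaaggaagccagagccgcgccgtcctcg
In 25 tested members with a window, both strands were searched. AP-1 (TGANTCA) was found in 0 of 25, against 7.33% of 33469 promoters, and TEAD (CATTCC) in 5 of 25 (20%) against 14.2%. CCAAT was in 6 of 25 (24%) against 37.5%, TATAAA in 2 of 25 (8%) against 14.2%, and the CArG box in 1 of 25 (4%, Itgb6) against 1.64%. These are matches of letters in the window, without a measure of binding.

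In the authors' deposited table, 37 members had an adjusted p and 3 passed, where 11.5% of 8175 genes tested here and listed there did: Col7a1 (log2 1.28, adjusted p = 0.00298), Tnc (0.83, adjusted p = 0.0105) and Col1a1 (0.62, adjusted p = 0.0189), each with the sign turned. The sign was turned because 97.6% of 8176 matched genes there run opposite to S against NS. The table names neither the groups compared nor the direction. The direction was inferred from these signs with S and NS taken as the groups. The signs were matched to no other comparison, so they do not identify the groups.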

How the data were processed

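The members and gene lists were chosen with earlier results of these data known. Per the submitters' processing notes, STAR, HTSeq and the build rn6 were used to make the counts; no version or annotation is stated there. Raw counts were deposited for 17337 symbols in 20 libraries, and the authors' DESeq2 table holds, per the file headers, log2 fold changes with SE, and each p-value raw and adjusted. Per the file name, that table controlled for rat.

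Counts were filtered with filterByExpr on the 4 groups (8320 genes kept), TMM-scaled and tested with the quasi-likelihood F test of edgeR 4.0.16 in R 4.3.3, with group and animal in 1 fit and 12 residual degrees of freedom. Calls are at a Benjamini-Hochberg adjusted p of 0.05. The animal block is the main fit because replicate numbers give the animal; deviations of same-animal libraries correlated at 0.316 or more (median 0.475), with a median of -0.172 between different animals. No library pair was identical. CPM is counts over the TMM library size; animals higher or lower were counted on log2(CPM + 0.5), and variance shares on log2(CPM + 1). HTSeq summary entries, of which records outside genes made up 16.2 to 24.5% of all records, were left out. The fit was tested on simulated data. DESeq2 1.42.0 was an alternative.

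Per-library values were shown for the 5 called members of at least 10 CPM with the largest change in each stretch comparison, and for Itga6, which was added after its values were seen. Also named were every called member and every uncalled member of at least 100 CPM, plus subunit partners, except 1 member that is not reported here by name and is not drawn in the figures, though it enters the counts and medians. Of each pathway list, the 2 called genes with the largest change in each stretch comparison are named. Intervals are 95% and cover counting and replicate error of these libraries only. Promoter windows were matched by symbol to the RefSeq table for 45 of 61 members. Figures were drawn with matplotlib 3.10.9.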

Additional observations from a re-analysis of the deposited data

Results flagged for a closer look

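A sample that stood far from the other 4 of its group was looked for in 60 groups of 5 (15 called members), where chance gives about 1 in 20; 11 were found. The groups are not independent, since the same 5 animals are in all 4 groups of a gene, and 7 of the 11 are Lox in animal 1 and Itgb2 in animal 4. Lox in animal 1 stood alone in all 4 groups: 144.4 CPM in NS (others 16.75 to 32.07), 208.2 in S (15.25 to 51.51), 120.5 in NS_PI (12.13 to 26.94) and 335.2 in S_PI (26.83 to 53.36). Itgb2 in animal 4 did so in NS at 346.4 CPM (others 62.16 to 134.3), in S at 446.4 (71.02 to 111.4) and in NS_PI at 316.8 (54.22 to 113.1). In S_PI, Itga5 in animal 1 read 46.98 CPM (others 6.711 to 15.25) and Col18a1 in animal 1 read 8.595 CPM (others 51.08 to 66.8). Col6a2 in NS_PI was high in animal 5 at 18.57 CPM (others 0.8336 to 4.645), and Itgb1 in S was low in animal 2 at 845.4 CPM (others 1352 to 1403).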

How the results depend on the processing

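Without the animal as a block, 0 members were called in either stretch comparison, 0 higher and 0 lower, against 8 and 12 with it; of all genes tested, 9.83% and 14.8% were still called. S against NS was otherwise 6 to 7 members by DESeq2, library-size scaling, upper-quartile scaling or no filter, 2 (2 higher, 0 lower; 13.5% of all genes) when only the compared groups were fitted, and 3 to 6 when 1 animal was left out (3 to 6 higher, 0 to 1 lower; 17% to 21.7% of all genes). Library-size scaling gave 4 higher and 2 lower; lower calls were 2 under upper-quartile scaling and 0 by DESeq2 and without the filter. S_PI against NS_PI gave 9 to 14 with 1 animal left out (9 to 11 higher, 0 to 4 lower); lower calls were 5 by library size, 4 by upper quartile, 6 without the filter and 0 with only the compared groups. Library-size scaling moved the median of all genes to -0.122 and -0.118, with 722 higher and 1425 lower genes in S against NS. Inhibitor and interaction calls of members were 0 in each alternative run; over all genes, NS_PI against NS gave 27 with only the compared groups, 4 without the filter, 3 without animal 1 and 7 by DESeq2, which gave 10 and 3 in S_PI against S and the interaction. Col7a1 in S, and Col7a1, Tnc, Col5a3, Lox, Nid2, Lama4, Col1a1 and Itgb2 in S_PI, were lost in no alternative but the fit without the block.

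The directions that turned under an alternative belonged to changes not called in the reported fit. Across 74 stretch changes of single members in 11 alternatives or fewer, 685 of 804 values kept direction and side of the threshold, 71 lost a call, 27 gained one and 21 turned. In S against NS, Col4a1 read -0.065 by library size and -0.014 by upper quartile, Lama5 -0.0083 by library size, and Sparc 0.019 by DESeq2 and 0.0030 without the block. With 1 animal left out, Col4a1 ran from -0.076 to 0.18, Col4a3bp from -0.22 to 0.17, Col4a4 from -0.23 to 1.53, Itga5 from -0.035 to 1.00 and Sparc from -0.040 to 0.056. In S_PI against NS_PI, Itga8 read 0.060 without the block and 0.0028 with only the compared groups, and Itgb3bp -0.056 by library size and -0.029 by upper quartile; with 1 animal left out, Itga8 ran from -0.24 to 0.32, Itgb1bp1 from -0.15 to 0.047 and Itgb3bp from -0.33 to 0.20. The causes were not tested. Animal-term calls ran from 24 to 38. Depth limits members near 3 counts, and 5 animals limit all comparisons.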
